A study of Mus musculus with 16 samples.

Results

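Gm2022, Tcstv3 and D13Ertd608e are genes of the 2-cell-like program of mouse embryonic stem (ES) cells, and they were picked because their signals were far lower in the ES line E14 than in the ES line ESVJ. Members were the probe sets that the array annotation gives to 1 gene only and that carry one of these names. Each gene had 1 probe set, which makes 3 of 8251 genes with a probe set of their own and 3 of the 12488 probe sets of the array: 94745_f_at for Gm2022 on chromosome 12, 96584_f_at for Tcstv3 on chromosome 13 and 95532_at for D13Ertd608e on chromosome 13. The suffix _f_at marks a probe set whose probes are shared by several related sequences, so the Gm2022 and Tcstv3 signals may include RNA of close relatives, whereas 95532_at carries the plain suffix. None of these probe sets has the suffix _s_at.

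The mouse embryo switches on its own genome mainly at the 2-cell stage, when a short burst of stage-specific genes and MERVL endogenous retroviral repeats is transcribed under factors such as Dux. In ES cell cultures a small and changing share of the cells passes through a state that transcribes the same genes, while histone deacetylases, histone and DNA methyltransferases and Polycomb complexes keep them silent in most cells. Gm2022 encodes a protein related to the translation initiation factor Eif1a, and Tcstv3 belongs to the 2-cell-stage variable group of genes. D13Ertd608e is entered in the RefSeq gene table of GRCm38.p6 as a transcript of the class misc_RNA, and no function is given to it here.

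Expression was measured on Affymetrix U74Av2 arrays in 16 mouse samples, 1 array each. Cdk4 +/- ES cells (3 arrays, heterozygous for a mutation of the cell cycle kinase Cdk4) were set against E14, the +/+ line that served as their control (3 arrays); both lines are feeder-independent and their RNA was taken with RNeasy. Abca1 +/- ES cells (3 arrays, heterozygous for a mutation of the cholesterol transporter Abca1) were set against ESVJ, their +/+ parental line (3 arrays); both were grown on irradiated mouse embryonic fibroblasts, depleted of these feeders, kept on gelatin for about 2 days and extracted with Trizol and RNeasy. Livers labelled Abca1 +/- (2 arrays) and +/+ livers (2 arrays) came from mice of mixed 129/SvJ and C57BL6/J background. The description of Abca1 +/- replicate 2 leaves out the genotype, which its source label gives. The labels number no replicates, and the numbers used below follow the order of the samples and only name them. The labels do not say whether arrays of a group are separate cultures or whether a mutant line is a single clone, so p-values measure only the spread between these samples. E14 and ESVJ differ in line, feeder culture and RNA extraction at once, and these cannot be told apart, nor can they between Cdk4 +/- and Abca1 +/- cells.

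The 4 ES groups expressed the ES cell transcription factor Pou5f1 at a mean of 7033 to 10679 signal units, against 9.57 and 35.2 in the liver groups, and albumin (Alb) was at 64.4 to 134 in the ES groups and 46225 and 52162 in the liver groups. The better measured Cdk4 probe set was at 3678 ± 209 in Cdk4 +/- cells and 5716 ± 188 in E14 (SD, n = 3 each). The Abca1 probe set with the higher signal in ES cells was at 110.4 ± 14.8 in Abca1 +/- and 141 ± 38.1 in ESVJ cells (SD, n = 3 each), and at 627 ± 102 in livers labelled Abca1 +/- and 314 ± 18.5 in +/+ livers (SD, n = 2 each); a second Abca1 probe set went the other way in liver, with 101 ± 84.2 in livers labelled Abca1 +/- and 217 ± 109 in +/+ livers. The place of these probes relative to the mutation is not given in the sources used here.

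Gm2022 separated all 4 ES groups. Its signal was 526, 717 and 599 in Cdk4 +/- cells and 253, 339 and 243 in E14. It was 2673, 2352 and 2744 in Abca1 +/- cells and 3483, 3529 and 3275 in ESVJ. The order of the groups was thus E14, Cdk4 +/-, Abca1 +/- and ESVJ, and no neighbours in this order shared a value. In liver the probe set gave 63.4 and 53.4 in livers labelled Abca1 +/- and 111 and 23.7 in +/+ livers, below every ES array.

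Tcstv3 repeated the gap between the 2 pairs of lines. Its signal was 197, 289 and 251 in Cdk4 +/- cells and 166, 113 and 114 in E14, and it was 1497, 1021 and 1157 in Abca1 +/- cells and 1361, 1439 and 1445 in ESVJ. The Cdk4 +/- arrays were all above those of E14 and all below those of the feeder-grown lines, whereas Abca1 +/- and ESVJ arrays overlapped. Livers labelled Abca1 +/- gave 38.5 and 5.86 and +/+ livers 26.1 and 19.5, so the E14 arrays lay above all livers, as they did for 41.8% of all probe sets.

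D13Ertd608e was near the liver signal in the feeder-independent lines. Its signal was 65.6, 117 and 73.4 in Cdk4 +/- cells and 40.3, 19.5 and 46.2 in E14, against 655, 479 and 540 in Abca1 +/- cells and 547, 682 and 582 in ESVJ. Cdk4 +/- arrays again lay above E14, and the feeder-grown lines overlapped. The livers gave 20.6 and 82.4 where labelled Abca1 +/- and 103 and 63.2 where +/+, so that both E14 and Cdk4 +/- arrays overlapped the range of a tissue in which 2-cell genes are not known to be active; Cdk4 +/- replicate 2 lay above it and E14 replicate 2 below it.

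**Figure D1:**
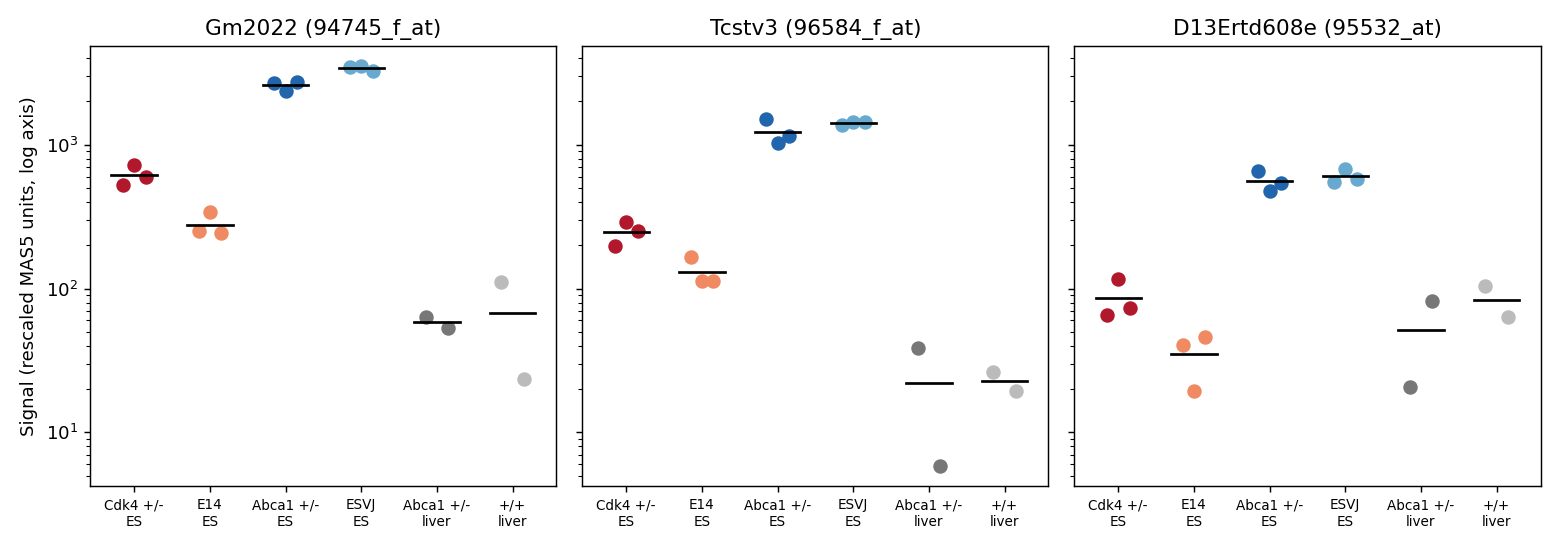
Signal of each probe set (MAS5 units after rescaling, logarithmic axis) on every array, with 1 point per array and a bar at the group mean, for Gm2022, Tcstv3 and D13Ertd608e. Feeder-independent lines (Cdk4 +/- and E14) sit below the feeder-grown lines (Abca1 +/- and ESVJ) in each panel, and D13Ertd608e in E14 (19.5 to 46.2) overlaps the range of the livers (20.6 to 103).

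E14 against ESVJ is the comparison on which the genes were chosen, so its values are a description without a test. Gm2022 stood at 8.89% of ESVJ in E14 (95% interval 7.20 to 10.97), a log2 difference of -3.49 (SE 0.14). Tcstv3 stood at 11.1% (8.60 to 14.4), a log2 difference of -3.17 (SE 0.18), and D13Ertd608e at 10.5% (7.65 to 14.3), a log2 difference of -3.26 (SE 0.21). These percentages are of signals with 32 added; the means of the signals themselves gave 8.11%, 9.26% and 5.86%, so the value of D13Ertd608e moved by over 1.5 times. The log2 differences were the 5th, 8th and 7th lowest differences of the 7349 probe sets compared; arrays did not overlap for 3 of 3, a pattern that 28.9% of all probe sets showed in this direction. In RNA of a whole culture, fewer cells in the 2-cell-like state and less RNA per cell cannot be told apart.

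Markers of other cell states moved between the same lines. The summed signal of 23 probe sets of fibroblast (feeder) genes was 18337 to 21064 in E14 and 7238 to 7495 in ESVJ, and none of these probe sets was at 0 on any ES array. Of the 12 above the signal filter, 6 were higher in E14 by limma at an adjusted p under 0.05 (Cnn1, Tagln, Acta2, Sparc and both probe sets of Col1a1) and 3 were lower (Fbln2 at -0.82, Col1a2 at -0.60 and a probe set of Pdgfra at -0.96). The summed signal of ES cell genes was 44793 to 51018 in E14 and 77983 to 86329 in ESVJ, and of 19 probe sets above the filter 16 were lower and 1, Dppa3, was higher in E14. The summed signal of endoderm genes was 23552 to 27160 in E14 and 4716 to 4815 in ESVJ, but 5 of 12 probe sets were lower in E14 (Lama1, Gata4, Sox17, Sox7 and Gata6, at -1.80 to -0.76) and 4 higher (Krt8, Krt18, Krt19 and Col4a1, at 1.67 to 4.95). Of all probe sets, 22.8% were called lower and 19.8% higher. The part of these genes in the difference of the 2-cell genes was not tested.

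Cdk4 +/- cells against Abca1 +/- cells also set a feeder-independent against a feeder-grown line, here with different mutations, on arrays that the E14 and ESVJ comparison did not use; they were known when the comparison was chosen. Tcstv3 was lower in Cdk4 +/- cells, at 22.2% of its level in Abca1 +/- cells, with a log2 difference of -2.17 (SE 0.18, limma adjusted p = 1.78e-07), and 3 of 3 Cdk4 +/- arrays lay below all Abca1 +/- arrays, as for 28.2% of all probe sets. D13Ertd608e was lower too, at 19.7%, with a log2 difference of -2.34 (SE 0.21, limma adjusted p = 6.1e-07) and again no overlap. It passed the signal filter through the feeder-grown groups, its mean in Cdk4 +/- cells being 85.4; without the filter the limma adjusted p was 3.04e-06. In this comparison 21.1% of all 7349 probe sets were called lower, so the call itself is common; the 2 differences ranked 19th and 14th lowest. The summed signal of feeder genes was 23597 to 25608 in Cdk4 +/- and 7071 to 7860 in Abca1 +/- cells. That of ES cell genes was 54348 to 60067 in Cdk4 +/- and 75115 to 86506 in Abca1 +/- cells. By limma at an adjusted p under 0.05, 6 of 12 feeder probe sets were higher in Cdk4 +/- cells and 1 lower. Of 19 ES cell probe sets, 12 were lower and 1 higher. Of all probe sets, 19.4% were called higher. The part of these genes in the differences was not tested. Gm2022 differed by -2.03 on the log2 scale (SE 0.14); it gets no p because earlier results had already singled it out by a difference that used all 12 ES arrays.

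Within the feeder-independent pair, the 3 genes were higher in Cdk4 +/- cells than in E14. The log2 difference was 1.06 for Gm2022 (SE 0.14, a 2.09-fold signal), 0.77 for Tcstv3 (SE 0.18, 1.71-fold) and 0.80 for D13Ertd608e (SE 0.21, 1.74-fold). Arrays did not overlap for 3 of 3, against 13% of all probe sets in this direction. The E14 arrays are shared with the comparison that chose the genes for being low in E14, so these values carry no test. Cdk4 +/- replicate 2 was the highest array of its group for each of the genes, and it also had the highest signal of the BioB spike-in control in its group (2985, against 1294 and 1715 on the other arrays). Without it the differences were between 0.61 and 0.95. The summed signal of ES cell genes was 54348 to 60067 in Cdk4 +/- cells and 44793 to 51018 in E14. That of feeder genes was 23597 to 25608 in Cdk4 +/- cells and 18337 to 21064 in E14. By limma at an adjusted p under 0.05, 4 of 19 ES cell probe sets were higher in Cdk4 +/- cells and 0 lower. Of 12 feeder probe sets 1, Sparc, was higher and 0 lower. Of all probe sets, 2.59% were called higher and 2.33% lower. The part of these genes in the differences was not tested.

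Within the feeder-grown pair the differences were small. Gm2022 was at 75.6% of ESVJ in Abca1 +/- cells, a log2 difference of -0.40 (SE 0.14), and its arrays did not overlap, as for 4% of all probe sets in this direction. Tcstv3 differed by -0.22 (SE 0.18) and D13Ertd608e by -0.11 (SE 0.21), with overlapping arrays and 95% intervals of -0.59 to 0.15 and -0.57 to 0.34. The ESVJ arrays are shared with the choosing comparison, so no test is given.

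Set against the mean of the liver groups in a fit of all 16 arrays, Tcstv3 was 5.18-fold higher in Cdk4 +/- cells (log2 difference 2.37, SE 0.22, limma adjusted p = 1.98e-08) and 23.4-fold higher in Abca1 +/- cells (4.55, SE 0.22, limma adjusted p = 2.87e-12). These folds are of signals with 32 added, which exceeds most liver signals of Tcstv3: the means of the signals themselves gave ratios of 10.9 and 54.4, and the log2 differences ranged between 1.495 and 3.629 in Cdk4 +/- and between 3.426 and 5.941 in Abca1 +/- cells over the alternatives. D13Ertd608e was 6.24-fold higher in Abca1 +/- cells (2.64, SE 0.26, limma adjusted p = 5.79e-08). D13Ertd608e passed the signal filter of this fit through the feeder-grown groups. Its means were 85.4 in Cdk4 +/- cells, 35.3 in E14, and 51.5 and 83.3 in the liver groups. Its place in the fit thus already required a higher signal in the feeder-grown lines. In Cdk4 +/- cells it differed from liver by 0.30 (SE 0.26, 95% interval -0.26 to 0.85, limma adjusted p = 0.313), which did not pass the threshold of 0.05. Without 1 of the livers labelled Abca1 +/- (replicate 2) the difference was 0.58. That fit left replicate 1 as the only liver labelled Abca1 +/-. The signal ratio of the 3' to the 5' actin control, a measure of RNA integrity, was 8.23 in replicate 1. It was 2.14 in replicate 2, and 1.78 and 1.81 in the +/+ livers. Of all probe sets, 48% were called higher than liver in Cdk4 +/- and 46.8% in Abca1 +/- cells. For Gm2022, given without a test, the differences from liver were 2.84 in Cdk4 +/-, 1.78 in E14, 4.87 in Abca1 +/- and 5.27 in ESVJ cells (SE 0.23 each).

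Between the liver groups none of the genes reached the signal filter, a mean of at least 100. Without the filter, livers labelled Abca1 +/- and +/+ livers differed by 0.02 for Gm2022 (SE 0.51), -0.08 for Tcstv3 (SE 0.35, limma adjusted p = 0.961) and -0.55 for D13Ertd608e (SE 0.51, limma adjusted p = 0.730). With 2 arrays a group, the interval for D13Ertd608e ran between -1.65 and 0.55. Replicate 1 of the livers labelled Abca1 +/- is the array with the actin ratio of 8.23. Of 7160 probe sets above the filter in liver, 0.014% were called higher and 0% lower.

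The other genes of a list of 65 names of the 2-cell program were read for the same pattern; 15 genes besides the members had 17 probe sets, of which 10 passed the filter. The list was drawn up with earlier results of these data known. In E14 against ESVJ, 8 of the 10 were lower and 0 higher by limma at an adjusted p under 0.05, against 22.8% of all probe sets called lower and 19.8% called higher; their median log2 difference was -2.10, beside -0.09 over all probe sets. BC147527 differed by -3.00, Usp17la, which encodes a deubiquitinating enzyme, by -2.90, AF067061 by -2.46 and Tcstv1, the relative of Tcstv3, by -2.40. Arg2, a mitochondrial arginase, differed by -2.21, AF067063 by -1.995, Calcoco2, known in human cells as an autophagy receptor, by -0.96 and Pramel7, a leucine-rich repeat protein of early embryos, by -0.90. The metallothioneins Mt1 (0.44, limma adjusted p = 0.0932) and Mt2 (-0.03, limma adjusted p = 0.902) did not pass. BC147527, Usp17la, AF067063 and Arg2 had means of 37.8, 32.9, 28.6 and 46.5 in E14. They were below the signal filter in both feeder-independent groups and passed it through the feeder-grown groups. Their place among the 10 thus already required a higher signal in the feeder-grown lines. Pramel7 was below the filter in E14 only (71.8). Without the filter, 10 probe sets of the list were lower in E14 and 0 higher.

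Usp17la, whose probe set has no shared-probe suffix, gave 89.9, 78.6 and 106 in Cdk4 +/- cells and 39.1, 37.0 and 22.7 in E14, and 392, 421 and 405 in Abca1 +/- cells and 498, 540 and 336 in ESVJ. Its groups fell in the order of the members, with no overlap except between Abca1 +/- and ESVJ. AF067063, also without that suffix, gave 10.7, 10.2 and 36.5 in Cdk4 +/- cells and 15.2, 59.7 and 10.99 in E14, and 193, 130 and 185 in Abca1 +/- cells and 152, 256 and 190 in ESVJ. For this gene Cdk4 +/- and E14 overlapped each other and the livers (11.4 to 46.7).

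In Cdk4 +/- cells against E14, 4 of the 10 rose and 1 fell, beside 2.59% of all probe sets called higher and 2.33% called lower; the median was 0.76, beside 0.02 over all. The genes that rose were AF067061 (1.04, limma adjusted p = 0.00354), Usp17la (0.93, limma adjusted p = 0.0182), Tcstv1 (0.83, limma adjusted p = 0.0393) and Calcoco2 (0.95, limma adjusted p = 0.0459), and Mt1 fell (-0.74, limma adjusted p = 0.0486). Usp17la was below the signal filter in both groups compared (means of 91.6 in Cdk4 +/- cells and 32.9 in E14) and passed it through the feeder-grown groups. AF067061 and Tcstv1, like BC147527, have probe sets of the shared _f_at kind. Their calls in each comparison are thus not independent of each other or of Tcstv3. Both counts are fragile. The call of Mt1 was lost in 15 of 22 alternatives, and the count of 4 was 1 without Cdk4 +/- replicate 1 or 3 and 2 without E14 replicate 1 or 3, Abca1 +/- replicate 2 or 3 or ESVJ replicate 2. In Abca1 +/- cells against ESVJ 0 of the 10 passed in either direction, where 0.0136% of all probe sets were called each way. In Cdk4 +/- against Abca1 +/- cells 6 of the 10 were lower and 0 higher, beside the 21.1% and 19.4% of all probe sets called lower and higher: BC147527 (-2.14), AF067063 (-2.001), Usp17la (-1.83), Arg2 (-1.62), Tcstv1 (-1.48) and AF067061 (-1.35). BC147527, AF067063, Usp17la and Arg2 were below the signal filter in Cdk4 +/- cells, with means of 84.0, 19.1, 91.6 and 62.5. They passed it through the feeder-grown groups, so their place among the 10 already required a higher signal there. Tcstv1 and AF067061 were above the filter in Cdk4 +/- cells, with means of 542 and 713. These comparisons share arrays with each other and are not separate evidence.

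**Figure D2:**
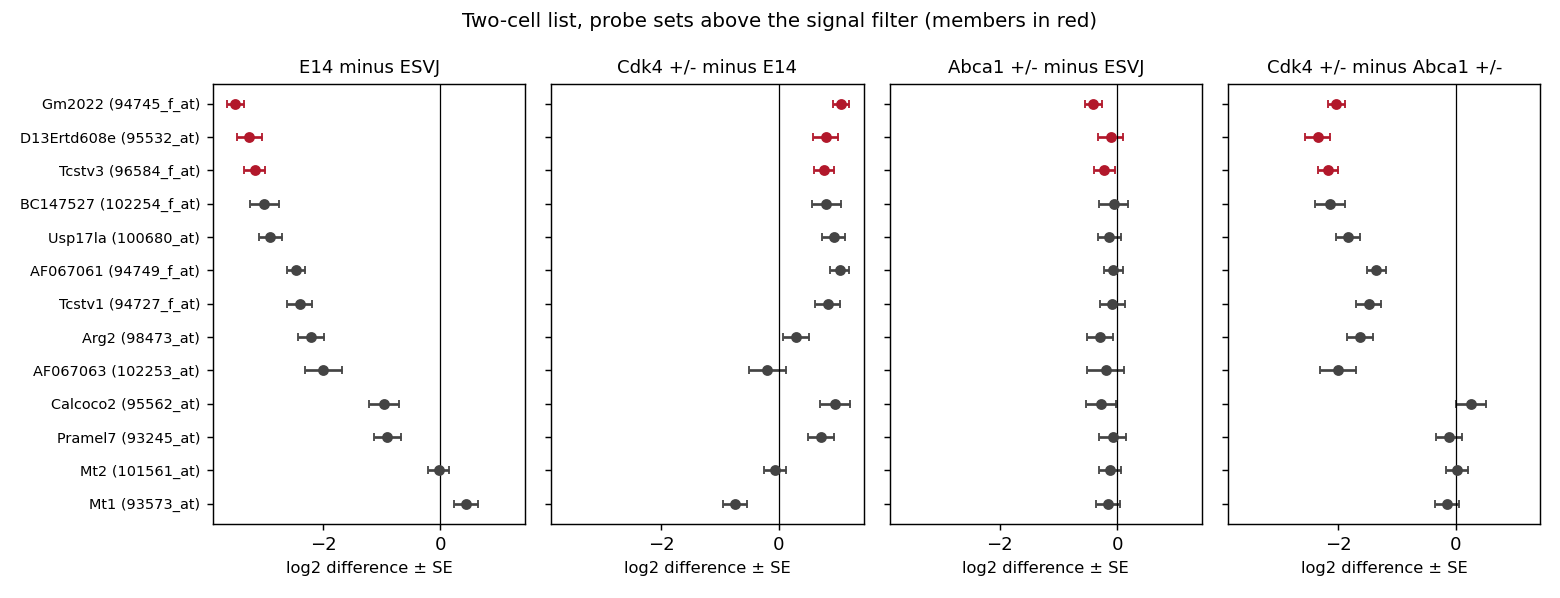
Log2 difference ± SE of each probe set above the signal filter, for Gm2022, Tcstv3 and D13Ertd608e (red) and the other 10 probe sets of the 2-cell list (grey), in 4 comparisons of ES groups. Points lie left of 0 for most of the list in E14 minus ESVJ and in Cdk4 +/- minus Abca1 +/-, right of 0 for most in Cdk4 +/- minus E14, and near 0 in Abca1 +/- minus ESVJ.

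The 7 probe sets of the list below the filter belonged to Pramel6, Usp17lc, Rfpl4, Slc34a2, Zfp54 (a pair) and Arg2 (a second one). Usp17lc, a relative of Usp17la, gave 14.4 to 39.5 in E14 and 88.7 to 113 in ESVJ. Pramel6 gave 10.5 to 26.9 in E14 and 54.8 to 89.4 in ESVJ. The _f_at probe set of Zfp54 gave 29.9 to 35.4 in E14 and 44.8 to 51.3 in ESVJ. These were lower in E14 without overlap, as were 28.9% of all probe sets above the filter. The other Zfp54 probe set was higher in E14 without overlap, with 81.8 to 113 against 68.0 to 77.0 in ESVJ. Rfpl4 overlapped, with 48.7 to 90.2 in E14 and 20.5 to 83.7 in ESVJ. Slc34a2 overlapped too, with 17.9 to 32.5 in E14 and 21.1 to 36.7 in ESVJ. The second Arg2 probe set went the other way from the first, with 48.2 to 73.0 in E14 and 18.0 to 50.2 in ESVJ. All of these signals are low, and they were tested only as part of the count made without the filter.

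Tcstv3 and D13Ertd608e lie in 1 stretch of chromosome 13, which was looked at after the values were seen. In the gene order of GRCm38.p6 the measured genes there ran AF067063, D13Ertd608e, Tcstv1, Gm20767, AF067061, BC147527 and Tcstv3. Gm20767, which is not on the 2-cell list and was chosen by its place, was lower in E14 than in ESVJ (-2.74, SE 0.20) and higher in Cdk4 +/- cells than in E14 (0.96, SE 0.20), given without a test. All 7 differed by -1.995 to -3.26 in E14 against ESVJ, while the nearest measured genes before them were Zfp131 (0.09), Hmgcs1 (0.20), 4833420G17Rik (-0.61) and Nnt (0.52). Their probe sets are not independent measurements: those of Tcstv1, Gm20767, AF067061, BC147527 and Tcstv3 are of the _f_at kind, and only D13Ertd608e and AF067063 have plain ones. Which of the genes gave the signal of a shared probe set was not tested.

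Among the genes above the signal filter in its stretch of chromosome 12, Gm2022 is alone in so low a difference. Its measured neighbours were Gstz1 (0.28), Sptlc2 (0.58), Slirp (-0.76) and Snw1 (0.00) before it and Gtf2a1 (-0.23), Sel1l (-0.50), Ptpn21 (1.31) and Zc3h14 (0.16) after it, on the log2 scale for E14 against ESVJ. The lowest of these 8 was -0.76, against -3.49 for Gm2022.

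**Figure D3:**
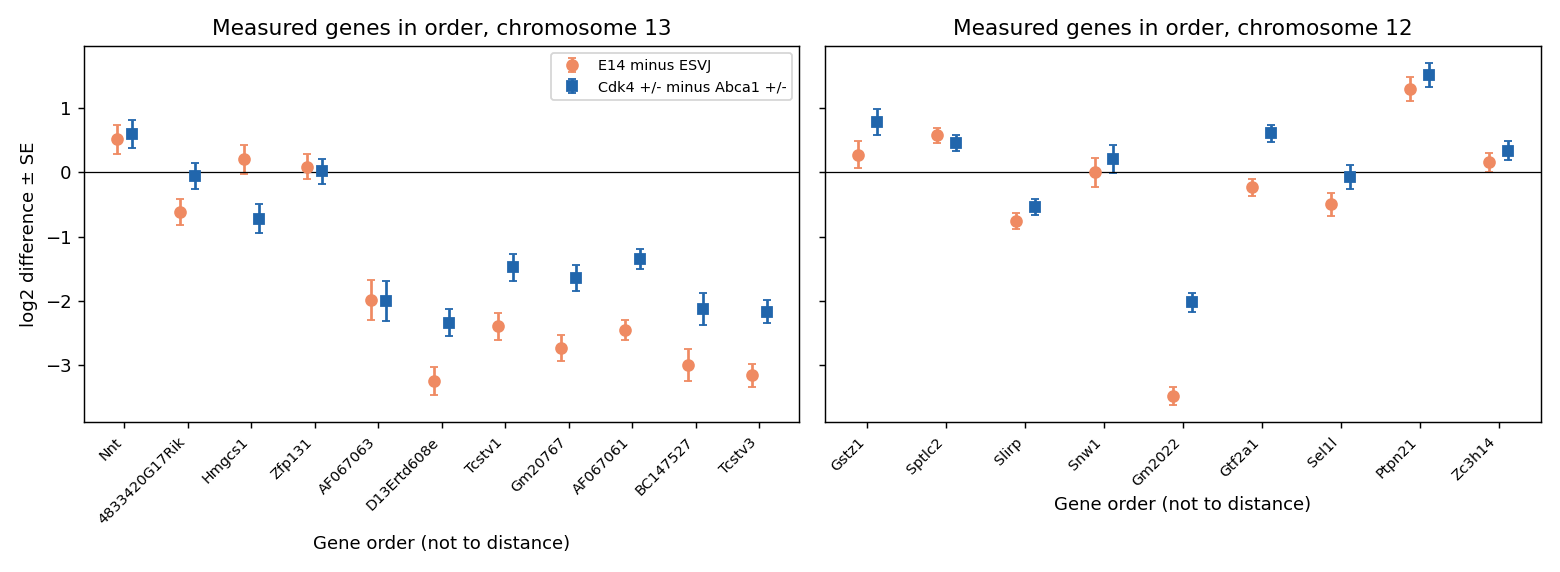
Log2 difference ± SE for genes above the signal filter in chromosomal order (equal spacing, not distance), on chromosome 13 (left) and chromosome 12 (right). Circles are E14 minus ESVJ and squares Cdk4 +/- minus Abca1 +/-. On chromosome 13 the points drop below -1 in both comparisons at AF067063 and stay there up to Tcstv3, and on chromosome 12 only Gm2022 does so.

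The promoter table from RefSeq (GRCm38.p6) held no entry for the 3 members, but it did for AF067061 and BC147527 of the same stretch, which are printed because they moved with Tcstv3 and D13Ertd608e. Each line gives the 250 bases before the start site, on the plus strand, at chr13:120262845-120263094 for AF067061 and chr13:120300142-120300391 for BC147527. Capitals mark the letters GATTNAAT (either strand, where matches on both strands may overlap), the core of the sequence known for Dux, and TATATAA.
AF067061: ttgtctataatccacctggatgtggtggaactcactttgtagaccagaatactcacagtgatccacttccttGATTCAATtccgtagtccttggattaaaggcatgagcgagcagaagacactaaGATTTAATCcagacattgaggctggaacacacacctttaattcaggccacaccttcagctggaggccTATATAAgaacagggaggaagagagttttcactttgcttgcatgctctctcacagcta
BC147527: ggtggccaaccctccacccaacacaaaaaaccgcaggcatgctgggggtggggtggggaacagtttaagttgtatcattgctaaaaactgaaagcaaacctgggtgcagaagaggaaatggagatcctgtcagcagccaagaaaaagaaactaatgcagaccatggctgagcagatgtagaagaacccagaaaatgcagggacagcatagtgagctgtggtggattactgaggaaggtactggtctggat
AF067061 held GATTNAAT at positions -178 and -125 from the start site, where the match at -125 overlaps one on the other strand at -124, and TATATAA at -58; BC147527 held neither. Of 32851 promoter windows of the same length, 1.81% held GATTNAAT and 3.04% TATATAA at least once. Usp17la, on chromosome 7, also had an entry, and the 250 bases before its start site held neither motif. These motifs were chosen after the sequences were seen, and a match is a description only.

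Gm2022 was also set beside the Eif1a genes whose protein it resembles, since its probe set is of the shared kind. Of 5 probe sets of Eif1a, Eif1ax and Eif1b, 1 was lower in E14 than in ESVJ (Eif1a, -0.46, limma adjusted p = 0.0157), a share close to the 22.8% of all probe sets called lower, and the others differed by -0.19 to 0.23 and did not pass. The Eif1a probe set that passed had a signal of 1540.2, 1295 and 1593 in E14, against 1812, 2094 and 2218 in ESVJ. In Cdk4 +/- cells against E14 only Eif1b rose (0.56, limma adjusted p = 0.0185). The other 4 differed by -0.32 to 0.25 and did not pass.

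Across the 12 ES arrays, the probe sets most like each member were ranked among 6634 single-gene probe sets by Pearson's r of log2 signals. D13Ertd608e and Tcstv3 were each other's closest (r = 0.993). The next were Lama3, a laminin chain, and Mras, a small GTPase, for D13Ertd608e (0.993 and 0.985), and Mras, Gm2022 and Sin3a, a corepressor scaffold, for Tcstv3 (0.987, 0.987 and 0.986). For Gm2022 they were Ak4, an adenylate kinase (0.994), Ddx18, an RNA helicase (0.989), and Mras (0.989), ahead of Tcstv3 (0.987) and Usp17la (0.985). The arrays fall into clusters by line, which all points share, and 86 to 105 of the 6634 probe sets reached 0.95 with each member. For deviations from the group means r was 0.68 between Tcstv3 and D13Ertd608e, 0.29 between Gm2022 and Tcstv3 and 0.07 between Gm2022 and D13Ertd608e. With other genes of the 2-cell list compared here, Gm2022 gave 0.15 (Usp17la) to 0.65 (Tcstv1). Genes outside that list among the 5 most like each member gave 0.56 (Mras) to 0.94 (Ddx18) with Gm2022. Such genes gave 0.35 (Mras) to 0.78 (Lama3) with D13Ertd608e and 0.46 (Mras) to 0.61 (Gm20767) with Tcstv3. With the measured genes of its chromosome 13 stretch other than Tcstv3, D13Ertd608e gave between -0.41 (BC147527) and 0.04 (Gm20767).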

How the data were processed

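The authors hybridised total RNA to U74Av2 arrays and processed them with MAS 5.0 at default settings, per the labels. The deposited values are probe set signals, a linear intensity, scaled by the authors: the 2% trimmed mean was 1500.78 to 1501.63 on all 16 arrays. Detection calls were not used here. Signals were rescaled to a trimmed mean of 500, 32 was added and log2 taken. This pseudocount makes fold changes of dim probe sets smaller than their ratios of signals. Control probe sets and those with a mean under 100 over the arrays of a fit were left out. Differences between group means came from limma 3.58.1, run in R 4.3.3 (lmFit, eBayes with intensity trend), in fits of 12 ES arrays (7349 probe sets), 4 livers (7160) and 16 arrays (7841), with the Benjamini-Hochberg adjustment over every probe set of the fit and a threshold of 0.05. The steps were tested on simulated data. The number of arrays limits the precision: the median SE was 0.17 on the log2 scale for ES comparisons and 0.38 for liver. Gene names came from the array annotation, in which 10855 probe sets have 1 gene, 396 several and 1237 none. Chromosomes and gene order came from the RefSeq table of GRCm38.p6; the files name no build.

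The members, gene lists and comparisons were chosen with earlier results of these data known. Besides the members, genes were named if they were on the 2-cell or Eif1a lists, among the 5 most like a member, among up to 6 called genes with the smallest p of each marker or regulator list, or among fixed markers; the neighbours on chromosomes 12 and 13 were added after the values were seen.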

Additional observations from a re-analysis of the deposited data

Results flagged for a closer look

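Gm2022 differed in opposite directions between the mutant lines and their controls. It was 1.061 higher on the log2 scale in Cdk4 +/- cells than in E14. There 3 of 3 arrays lay above all E14 arrays, as for 13% of all probe sets. It differed by -0.403 in Abca1 +/- cells against ESVJ. There 3 of 3 arrays lay below all ESVJ arrays, as for 4% of all probe sets. Gm2022 was chosen for being low in E14 and high in ESVJ, which already favours both directions. How far these differences lie apart was not tested here, because earlier results had already picked out Gm2022 by it. Gm2022 was found among 14 probe sets checked for opposite differences. Groups of 2 or 3 arrays are too small for a test of single outlying arrays.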

How the results depend on the processing

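The members kept their sign in all 4 comparisons of ES groups under 263 of 263 alternative values, which changed the scaling, normalization, pseudocount, filter, variance model or arrays. Sizes moved with the scale and the pseudocount. For E14 against ESVJ, D13Ertd608e gave -3.784 on the deposited scale, -4.137 with a pseudocount of 1 and -2.378 with 100, Tcstv3 -3.447 with 1 and -2.721 with 100, and Gm2022 -3.23 with 100. For Cdk4 +/- against E14, D13Ertd608e gave 1.077, 1.291 and 0.4492 under the same 3 settings; it was below the filter when only these groups were fitted. Gm2022 against liver gave 3.215, 3.451 and 2.15 in Cdk4 +/- and 5.281, 5.534 and 4.069 in Abca1 +/- cells. D13Ertd608e in Cdk4 +/- cells against liver ranged between 0.01794 and 0.5777 when single arrays were left out. Leaving out a liver left 1 array in its group. In Cdk4 +/- against Abca1 +/- cells the limma adjusted p was between 9.23e-08 and 1.49e-05 for Tcstv3 and between 1.75e-07 and 2.17e-05 for D13Ertd608e.

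Of the other 2-cell probe sets, the 8 lower in E14 than in ESVJ became 5 with a filter of 200, where fewer probe sets were tested, and 7 to 8 with single arrays left out; the 0 higher became 2 with quantile normalization, 0 to 1 with single arrays left out and 1 without 3 arrays of high BioB control, a setting chosen after seeing the data. The 4 higher in Cdk4 +/- cells than in E14 became 2 with quantile normalization, no filter or no intensity trend, 1 with only the compared groups or all 16 arrays, and 1 to 4 with single arrays left out. The 1 lower became 0 on the deposited scale, with a pseudocount of 1, no filter, no intensity trend, only the compared groups or all 16 arrays, and 0 to 1 with single arrays left out. The 0 higher in Cdk4 +/- than in Abca1 +/- cells became 1 with quantile normalization. The cause of these changes was not tested. No paired analysis was possible because the labels give no replicate numbers; the numbers used here only name arrays. Signals near those of liver limit what can be read from D13Ertd608e and AF067063 in the feeder-independent lines.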

Other observations

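Of 27 probe sets of genes known to repress the 2-cell program, 14 were lower in E14 than in ESVJ and 1 was higher (the heterochromatin protein Cbx1, 0.58) by limma at an adjusted p under 0.05, beside 22.8% and 19.8% of all probe sets. They had a median of -0.41 beside -0.09 over all probe sets. The DNA methyltransferase Dnmt3a differed by -2.36, the Polycomb ubiquitin ligase Rnf2 by -2.15 and -1.08 with a further probe set at -0.10 that did not pass, the chromatin remodeller Smarcad1 by -1.13 with a second probe set at 0.42 that did not pass, the histone deacetylase Hdac1 by -0.88 and Zfp42 by -0.84. In Cdk4 +/- cells against E14, 4 rose and 0 fell, beside 2.59% and 2.33% of all probe sets: Smarcad1 (0.87), Hdac1 (0.79) and the heterochromatin protein Cbx5 (0.69 and 0.68, from a pair of probe sets). The second Smarcad1 probe set went the other way, at -0.47, and did not pass.

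Of 8 probe sets of genes known to activate the program, 6 were lower and 2 higher in E14 than in ESVJ, beside 22.8% and 19.8% of all probe sets. Nelfa, a subunit of the negative elongation factor, differed by -1.47, Dppa2 by -1.28 and the transcription factor Tbx3 by -0.99, while Dppa3 (0.87) and Gata2 (0.62) were higher. In Cdk4 +/- cells against E14, Tbx3 rose (1.20, limma adjusted p = 0.00354) and the other 7 did not pass. In Abca1 +/- cells against ESVJ, 0 probe sets of either list passed. Some genes of these lists also belong to the ES cell genes, of which 16 of 19 tested were lower in E14 than in ESVJ and 1 was higher.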
